A study of Mus musculus with 30 samples.

Results

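Glycolysis turns glucose into pyruvate, and 34 mouse genes of this pathway and of the response to low oxygen are described here. They were chosen by gene symbol from a list and were all found among the 55487 genes of the count tables. Of these, 22 genes carry out or regulate glucose uptake and glycolysis, 11 are genes known to be induced by hypoxia, and the last is Hif1a, which encodes the oxygen-regulated subunit of the transcription factor HIF-1. The study asks how ETV2, an ETS-family transcription factor that starts blood and vessel development, works together with KDM4A, a demethylase of lysine 9 of histone H3. RNA was sequenced in 18 libraries of cells labelled as mouse embryonic stem cells, in 6 groups of 3. Doxycycline (DOX) is the drug that switches on Etv2 in the iETV2 line. The groups were the iETV2-KDM4A (H188A) line with DOX, the same line without DOX, the iETV2 line with DOX, the iETV2 line without DOX, cells labelled KDM4A/4C DKO, and control cells for these. The iETV2-KDM4A (H188A) line is called the H188A line after its KDM4A variant, in which a histidine that holds the catalytic iron is replaced. Dose and length of the DOX treatment, the parent cells, the number of clones, how the KDM4A variant is driven and whether replicates were separate cultures are not given in the sources used here. The p-values therefore measure the spread between these libraries, which may be technical. No line without inducible Etv2 given DOX was analysed here, so DOX and Etv2 cannot be told apart. The lines were studied in separate experiments, so line and experiment cannot be told apart either.

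As background, glucose enters the cell through transporters, and a chain of enzymes from hexokinase to pyruvate kinase converts it to pyruvate. Pyruvate becomes lactate through lactate dehydrogenase or enters mitochondria through pyruvate dehydrogenase. When oxygen is low, HIF alpha subunits escape the prolyl hydroxylases that mark them for destruction and, with ARNT, raise transcription of many glycolytic enzymes and of genes such as Bnip3, Ndrg1 and Ddit4. Pluripotent mouse cells and blood-forming cells are both known for active glycolysis.

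Library totals ran between 40334911 and 68970038 counts. Levels are given as CPM, the count scaled to the library total, which cannot be compared between genes because they are not per length. Etv2 reached 15.2 ± 3.54 CPM in the H188A line with DOX, against 0.376 ± 0.270 without, and 18.6 ± 0.893 CPM in the iETV2 line with DOX, against 2.93 ± 0.176 without (mean ± SD, n = 3 each). Kdm4a had 86.9 ± 2.88 CPM in the H188A line with DOX and 83.5 ± 3.23 CPM without, and 87.3 ± 3.57 CPM in the iETV2 line with DOX and 85.3 ± 1.95 CPM without. In cells labelled DKO, Kdm4a had 43.9 ± 2.62 CPM against 54.6 ± 0.941 in control, and Kdm4c had 45.5 ± 2.64 against 30.7 ± 1.32 CPM. RNA of both genes was thus present in cells labelled DKO, and gene counts cannot show a small deletion. Etv2, Kdm4a and Kdm4c together held 92.4 ± 1.19 CPM in cells labelled DKO and 93.4 ± 1.75 CPM in control. By these values Etv2 RNA was present in both groups and higher in control. The 12 pluripotency markers summed to 2295 to 2709 CPM in the H188A line with DOX, 2584 to 2687 without, 1246 to 1342 in the iETV2 line with DOX, 1353 to 1397 without, 1856 to 1918 in cells labelled DKO and 477 to 494 in their control.

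In the iETV2 line, nearly the whole set was lower with DOX, from glucose uptake to lactate export, and the hypoxia-induced genes fell throughout. By edgeR's quasi-likelihood test with Benjamini-Hochberg adjustment at 0.05, 30 of 34 genes were lower with DOX and 2 were higher, while 13.3% of the 22025 genes tested were lower and 13.7% were higher. The median log2 change was -0.92 over the 34 genes and 0.00 over all genes. Of the 22 glucose transport and glycolysis genes 19 fell and 1 rose, with a median of -0.69. All 11 hypoxia-induced genes fell, with a median of -1.19. The difference between these medians was not tested. In bulk RNA, fewer cells of a type and less RNA per cell cannot be told apart. Blood markers summed to 313 to 337 CPM with DOX, against 13.1 to 18.7 CPM without, and endothelial markers to 471 to 480 CPM, against 24.1 to 29.8 CPM. Of the blood markers 9 of 10 and of the endothelial markers 10 of 10 were higher with DOX. None of these markers was at 0 in either group, and their part in the fall was not tested.

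Glucose uptake genes were among those that fell. Slc2a1 (ENSMUSG00000028645, chr4:119108745-119137330, GRCm38), which encodes the widespread glucose transporter GLUT1, had 307, 275 and 303 CPM in the 3 libraries with DOX, against 959.8, 897 and 928 CPM without. Its log2 change was -1.64 ± 0.07 (SE, adjusted p = 7.93e-11). The groups were far apart, with every DOX library under every library without DOX. Slc2a3, the high-affinity transporter GLUT3, had 437, 419.7 and 429 CPM with DOX, against 1159.6, 1135 and 1113 CPM without, a log2 change of -1.39 ± 0.07 (SE, adjusted p = 3.4e-10).

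The enzymes of the glycolytic chain moved together but by different amounts. Of 15 enzyme genes 14 fell, and the exception was Hk1, a hexokinase, with 25.9, 25.5 and 25.2 CPM with DOX, against 25.7, 26.2 and 24.8 CPM without. Its log2 change was 0.01 ± 0.07 (SE, adjusted p = 0.955), and the libraries of the 2 groups overlapped. Hk2, the other hexokinase measured and one known to be inducible, fell by 0.58 on the log2 scale. All 14 enzyme genes that fell had every DOX library under every library without DOX, as had 20.6% of all genes tested. Among phosphofructokinase subunits, which form the committed step, Pfkl fell by 0.91, Pfkp by 0.49 and Pfkm by 0.26. Pfkm was no longer called when replicate 1 of the iETV2 line without DOX was left out, at a log2 change of -0.22 with adjusted p = 0.105. Aldolases split fructose bisphosphate, and Aldoc fell by 1.31 while Aldoa fell by 0.71. Pgk1, the first ATP-forming enzyme of the chain, had 339.7, 326 and 349.5 CPM with DOX, against 776, 767 and 775 CPM without, with a log2 change of -1.18 ± 0.07 (SE, adjusted p = 1.27e-09). Gapdh, often used as a reference gene, had 4112, 3696 and 4636 CPM with DOX, against 6143, 5280.4 and 5801 CPM without. Its groups did not overlap, and its log2 change of -0.46 ± 0.08 (SE, adjusted p = 0.000546) was the smallest fall of the chain after that of Pfkm. Eno1, an enolase, fell by 0.59, but its near-identical copy Eno1b held 229 CPM with DOX and 362 CPM without, so the counts of Eno1 are uncertain. Eno2, the enolase known from neurons, fell by 1.18, and Pkm, pyruvate kinase, by 0.67. Tpi1, Gpi1 and Pgam1, which interconvert intermediates of the chain, fell by 0.93, 0.66 and 0.60.

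The pair of enzymes that make and remove fructose 2,6-bisphosphate, a potent activator of phosphofructokinase, split. Pfkfb3, whose product mainly makes the activator, had 22.8, 21.9 and 21.1 CPM with DOX, against 98.1, 98.4 and 96.6 CPM without, a log2 change of -2.14 ± 0.07 (SE, adjusted p = 3.21e-12). No glycolysis gene on the list fell more. Pfkfb4, its relative, was the only glycolysis gene on the list that rose, with 12.5, 12.1 and 15.1 CPM with DOX, against 8.08, 7.87 and 8.43 CPM without. Its log2 change was 0.72 ± 0.10 (SE, adjusted p = 3.39e-05), and the lowest DOX library lay above the highest library without DOX.

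Genes that set the fate of pyruvate were also uneven. Ldha (ENSMUSG00000063229, chr7:46842274-46855627, GRCm38), the lactate dehydrogenase subunit that favours lactate, had 591, 548 and 615 CPM with DOX, against 1158, 1055 and 1109 CPM without. The groups did not overlap, and the log2 change was -0.91 ± 0.07 (SE, adjusted p = 5.98e-08). Slc16a3, the lactate exporter MCT4, had 61.6, 56.3 and 59.7 CPM with DOX, against 172, 165 and 175 CPM without, a log2 change of -1.51 ± 0.07 (SE, adjusted p = 7.93e-11). Pdk1, a kinase that switches pyruvate dehydrogenase off, had 134, 133 and 131 CPM with DOX, against 133, 126 and 128 CPM without. Its log2 change of 0.06 ± 0.07 (SE, adjusted p = 0.637) did not pass the test.

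Hypoxia-induced genes gave the largest fall of the 34. Ndrg1 (ENSMUSG00000005125, chr15:66929318-66969641, GRCm38), a stress-responsive gene, had 24.2, 24.7 and 25.1 CPM with DOX, against 147, 141 and 151 CPM without. The DOX libraries lay far under the others, with a log2 change of -2.56 ± 0.07 (SE, adjusted p = 1.44e-13). Ankrd37, an ankyrin repeat gene of low level, had 0.668, 0.674 and 0.818 CPM with DOX, against 2.92, 2.84 and 3.10 CPM without, a log2 change of -2.02 ± 0.23 (SE, adjusted p = 4.78e-06). Bnip3, a receptor for the removal of mitochondria, had 58.3, 60.2 and 60.9 CPM with DOX, against 214, 199 and 218 CPM without. Its libraries did not overlap, and its log2 change was -1.80 ± 0.06 (SE, adjusted p = 6.17e-12). Ddit4, an inhibitor of the growth kinase mTORC1, had 71.6, 67.1 and 63.6 CPM with DOX, against 215, 213 and 215 CPM without, a log2 change of -1.65 ± 0.07 (SE, adjusted p = 7.46e-11). The remaining members ranged between -1.56 for Ak4, a mitochondrial adenylate kinase, and -0.45 for Higd1a, a protein of the inner mitochondrial membrane. Egln1 and Egln3, the HIF prolyl hydroxylases that feed back on HIF, fell by 1.09 and 1.02. Mxi1, an antagonist of MYC, fell by 1.19, and P4ha1 and P4ha2, collagen prolyl hydroxylase subunits, by 1.10 and 0.49.

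Hif1a itself (ENSMUSG00000021109, chr12:73901324-73947554, GRCm38) moved the other way in RNA. It had 325, 332 and 310.1 CPM in the DOX libraries, against 256, 264 and 249.8 CPM without DOX. Every DOX library was above every library without DOX, with a log2 change of 0.34 ± 0.07 (SE, adjusted p = 0.00154). HIF-1 alpha is mainly regulated as a protein, which was not measured.

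**Figure D1:**
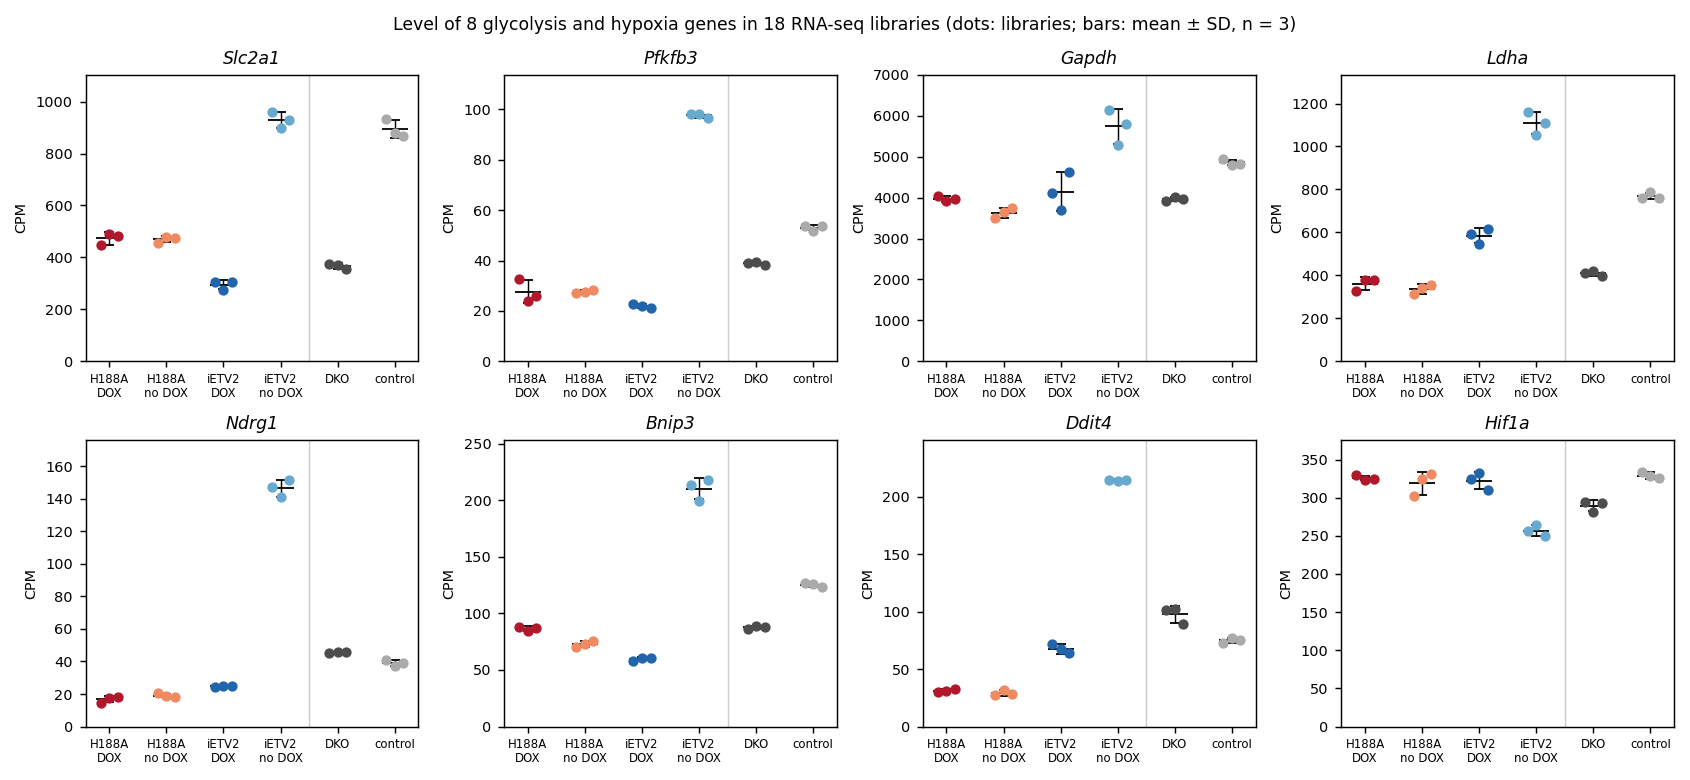
Levels of 8 of the 34 genes in the 18 RNA libraries, in CPM on a linear axis that starts at 0, by group. Dots are libraries and bars are mean ± SD of 3 libraries. Except for Hif1a, the iETV2 line without DOX stands above the other 3 groups left of the grey line. For Slc2a1 it lies at 959.8, 897 and 928 CPM.

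The wider pathway was read from lists of further genes, beside the 13.7% of all genes that rose and the 13.3% that fell. Of 32 other genes known to be induced by hypoxia, 25 fell with DOX in the iETV2 line and 2 rose, with a median log2 change of -0.58. Adm, the vasodilator adrenomedullin, had 1.18, 1.28 and 1.22 CPM with DOX, against 7.20, 7.31 and 8.85 CPM without, and fell by 2.65. Ppp1r3c, a glycogen-targeting subunit, fell by 1.88, and Car12, a carbonic anhydrase, by 1.76. Of 20 other glycolysis genes tested 8 fell and 4 rose. Hkdc1, a hexokinase relative, fell by 1.24, and Slc16a1, the monocarboxylate transporter MCT1, by 0.65. Of 25 genes of pyruvate entry and the citric acid cycle 0 were called lower and 4 rose, the latter near the share of all genes that rose. Among the 4 were the mitochondrial pyruvate carrier gene Mpc1, which rose by 0.69, and citrate synthase (Cs), which rose by 0.31. Of 12 genes of the HIF machinery 2 rose and 3 fell, which in so short a list is not far from the shares over all genes. Epas1, which encodes HIF-2 alpha, had 11.9, 11.9 and 10.8 CPM with DOX, against 5.94, 5.37 and 5.68 CPM without, a rise of 1.04. Hif3a fell by 0.68. Of 7 pentose phosphate genes 2 rose and 1 fell, again in a list too short to read against those shares. Of 6 gluconeogenesis genes tested 3 rose, namely Fbp1 by 1.03, Pck2 by 0.77 and Pcx by 0.60.

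Promoters were examined because HIF is known to bind a short core, ACGTG or GCGTG. RefSeq windows of 300 bases, 250 before to 50 after each annotated start (GRCm38.p6), were found for 32 of the 34 genes, 50 windows in all. Ndrg1 and Slc2a3 have no window. The windows shown belong to the glycolysis gene and the hypoxia-induced gene that changed most with DOX in the iETV2 line among genes with a window. Where a gene has several windows, the one with the most matches is shown. Capitals mark ACGTG or GCGTG on the printed strand and their reverse complements CACGT and CACGC, and a run of capitals longer than 5 bases holds overlapping matches on both strands. Pfkfb3 lies at chr2:11502041-11502340 on the minus strand and Ankrd37 at chr8:45999801-46000100 on the minus strand, each printed 5′ to 3′ in the direction of the gene.
Pfkfb3: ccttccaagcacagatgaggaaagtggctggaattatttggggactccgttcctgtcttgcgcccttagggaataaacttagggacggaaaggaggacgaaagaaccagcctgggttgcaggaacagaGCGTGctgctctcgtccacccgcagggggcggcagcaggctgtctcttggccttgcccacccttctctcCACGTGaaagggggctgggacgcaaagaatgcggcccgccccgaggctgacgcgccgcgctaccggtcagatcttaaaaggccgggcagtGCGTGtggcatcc
Ankrd37: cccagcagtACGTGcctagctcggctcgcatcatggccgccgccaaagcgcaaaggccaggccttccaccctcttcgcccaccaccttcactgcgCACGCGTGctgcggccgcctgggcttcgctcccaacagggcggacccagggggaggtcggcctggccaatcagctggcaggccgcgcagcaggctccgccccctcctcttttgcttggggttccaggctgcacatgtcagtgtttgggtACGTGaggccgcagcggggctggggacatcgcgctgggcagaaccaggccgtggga
Each window holds 4 matches. Among the others, 1 of the windows of Ldha holds 7. That of Bnip3 and 1 of those of Hk1, which was not called with DOX in the iETV2 line, hold 5 each. Gpi1, Eno2 and Tpi1 have none. At least 1 match was found in 41 of the 50 windows (82.0%), in 14 of 15 windows of hypoxia-induced genes (93.3%), in 26 of 34 windows of glycolysis genes (76.5%) and in 43.8% of all 32851 windows. ACGTG alone was in 56.0% of the 50 windows and 19.6% of all windows. CACGTG, the E-box that other factors bind and that overlaps ACGTG, was in 6 of the 50 windows and 7.15% of all windows. A match is a stretch of letters, not a measured site, and the share was not adjusted for base composition. Windows of the same gene can overlap, as those of Ak4 do, so they are not independent. The genes were listed as known glycolysis and hypoxia genes, so a higher share can come with that choice. A link of the matches to the change with DOX was not tested.

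In the H188A line, DOX left these genes close to their starting level. Only 2 of 34 genes were higher with DOX and 0 were lower, while 2.22% of the 21086 genes tested were higher and 0.801% were lower, 3.02% in all. DESeq2 called 5 higher and 1 lower, while it called 4.51% of all genes higher and 2.42% lower. By edgeR's test 17 of the 34 had an unadjusted p under 0.05, while a smaller share of all genes had, 4746 of 21086. Libraries with DOX lay wholly above those without for 12 of the 34 and wholly below for 3. Over all genes tested these shares were 11.9% and 15.2%. The median log2 change was 0.14 over the 34 genes, 0.15 over the 22 glycolysis genes, 0.11 over the 11 hypoxia-induced genes and -0.01 over all genes. Endothelial markers in this line summed to 225 to 228 CPM with DOX, against 97.9 to 107 CPM without.

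Aldoa was called at 1061, 1063 and 1080.5 CPM with DOX, against 866, 946 and 949 CPM without, a log2 change of 0.26 ± 0.06 (SE, adjusted p = 0.0472). Bnip3 was called at 88.2, 84.1 and 87.1 CPM with DOX, against 70.5, 73.1 and 75.6 CPM without, a log2 change of 0.29 ± 0.06 (SE, adjusted p = 0.0318). The groups do not overlap for either gene, but neither call survived leaving out any of 5 of the 6 libraries. Without those libraries adjusted p lay between 0.0739 and 0.275 for Aldoa and between 0.0509 and 0.245 for Bnip3. The 3 libraries of this line without DOX also differed in the summed level of 1754 olfactory and related receptor genes, at 598, 195 and 49.1 CPM, against 41.1, 92.6 and 34.8 CPM with DOX. With this sum as a covariate neither gene was called, at a log2 change of 0.19 for Aldoa and 0.22 for Bnip3 with edgeR's adjusted p = 0.226 and 0.201.

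Slc2a1 had 446, 491 and 482 CPM with DOX, against 457, 477 and 474 CPM without, and its libraries overlapped. The 95% interval of its log2 change was -0.07 to 0.18. Ldha had 325, 378 and 379.6 CPM with DOX, against 311, 340.0 and 355 CPM without, a log2 change of 0.15 ± 0.08 (SE, adjusted p = 0.277). Both stayed without a call, as did Ndrg1, with 14.7, 17.6 and 18.3 CPM with DOX, against 20.4, 18.6 and 18.2 CPM without. The interval of the Ndrg1 change was -0.33 to 0.08 on the log2 scale, which excludes a fall of the size seen in the iETV2 line. Hif1a had 329, 324 and 325 CPM with DOX, against 302, 324 and 331 CPM without, a log2 change of 0.08 ± 0.06 (SE, adjusted p = 0.451).

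A single library stood apart for some genes. P4ha1 had 72.3, 36.9 and 35.2 CPM in replicates 1, 2 and 3 with DOX, against 41.8, 39.6 and 38.2 CPM without. P4ha2 had 34.6, 18.6 and 18.1 CPM and Slc2a3 881, 662 and 655 CPM in the same libraries. Replicate 1 was the high one each time. In that library 10 endoderm markers summed to 888 CPM, against 430 and 427 CPM in the other DOX libraries and 548 to 567 CPM without DOX, and their part in these values was not tested.

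**Figure D2:**
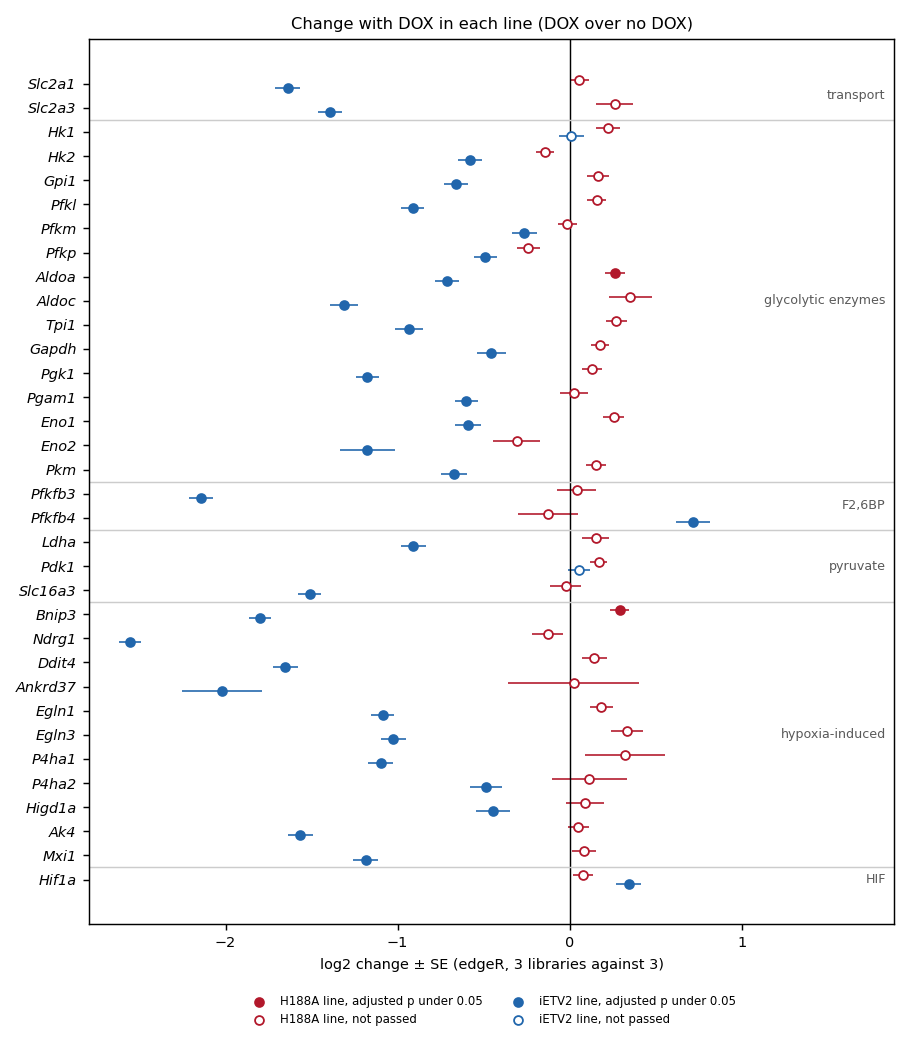
Log2 change with DOX over no DOX, with SE, for each of the 34 genes in the H188A line (red) and the iETV2 line (blue). Filled points passed edgeR's test at an adjusted p under 0.05. Nearly all red points lie close to 0, and 30 blue points lie to the left as filled points.

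The difference between the lines was tested directly in a fit of all 12 libraries. The log2 change with DOX in the H188A line minus that in the iETV2 line was above 0 for 27 of 34 genes and below 0 for 1, while 8.22% of 25516 genes tested were above and 6.20% below. Its median was 1.07 over the 34 genes and -0.13 over all genes. It was above 0 for 17 of the 22 glycolysis genes and 10 of the 11 hypoxia-induced genes. By size, the difference was 2.44 ± 0.11 (SE) for Ndrg1, 2.19 ± 0.15 for Pfkfb3, 2.10 ± 0.09 for Bnip3, 2.06 ± 0.40 for Ankrd37, 1.70 ± 0.10 for Slc2a1 and 1.67 ± 0.14 for Aldoc. Adjusted p was 1.22e-09 for Ndrg1 and Bnip3, 8.32e-08 for Pfkfb3, 2.49e-08 for Slc2a1, 9.61e-07 for Aldoc and 0.00219 for Ankrd37. Ldha differed by 1.07 ± 0.12 (SE, adjusted p = 1.1e-05). Pfkfb4 had the opposite sign, at -0.83 ± 0.19 (SE, adjusted p = 0.00614). The 6 genes without a call were Hk1, Pfkm, Pfkp, Pdk1, P4ha2 and Hif1a, the last at -0.26 ± 0.11 (SE, adjusted p = 0.132). Hif1a was called below 0 with the receptor sum as a covariate, at -0.41 with edgeR's adjusted p = 0.00141, and at -0.30 both with a stricter low-count filter and with library totals without TMM. P4ha2 was called without replicate 2 of the H188A line with DOX, at 0.78 with edgeR's adjusted p = 0.0486. P4ha1 differed by 1.43 ± 0.28 (SE, adjusted p = 0.00202), and by 0.99 without replicate 1 of the H188A line with DOX. Of the 32 other hypoxia-induced genes 22 had a difference above 0 and 1 below, with a median of 0.68.

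The libraries of the iETV2 line without DOX enter the DOX comparison of that line, the test of the difference and the comparison of the lines without DOX, so these results share samples and are given side by side. Without DOX, 29 of 34 genes were lower in the H188A line than in the iETV2 line and 5 were higher, while 18.6% of 25516 genes were lower and 19.7% higher, 38.3% in all. The median log2 difference was -0.76 over the 34 genes and 0.10 over all genes. Of the hypoxia-induced genes 10 of 11 were lower, with a median of -1.29, and of the glycolysis genes 19 of 22, with a median of -0.63. Libraries of all 34 genes lay wholly on one side, as did those of 26.7% of all genes on the lower side and 23.5% on the higher.

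Ndrg1 had 20.4, 18.6 and 18.2 CPM in the H188A line without DOX, against 147, 141 and 151 CPM in the iETV2 line without DOX, a log2 difference of -2.89 ± 0.08 (SE, adjusted p = 1.83e-13). Ddit4 had 27.5, 31.9 and 28.4 CPM, against 215, 213 and 215 CPM in the iETV2 line, a difference of -2.82 ± 0.08 (SE, adjusted p = 4.51e-13). Egln3 had 19.7, 22.7 and 23.7 CPM, against 82.6, 76.5 and 76.7 CPM in the iETV2 line, a difference of -1.77 ± 0.10 (SE, adjusted p = 4.59e-10). Among hypoxia-induced genes these were furthest apart. Aldoc had 7.96, 9.48 and 6.79 CPM, against 32.5, 28.1 and 30.6 CPM in the iETV2 line, a difference of -1.86 ± 0.10 (SE, adjusted p = 6.48e-10). Pfkfb3 had 27.1, 27.5 and 28.4 CPM, against 98.1, 98.4 and 96.6 CPM in the iETV2 line, a difference of -1.77 ± 0.10 (SE, adjusted p = 1.55e-09). Ldha had 311, 340.0 and 355 CPM, against 1158, 1055 and 1109 CPM in the iETV2 line, a difference of -1.67 ± 0.08 (SE, adjusted p = 2.27e-10). For all of these genes but Pfkfb3, the 3 libraries of the H188A line without DOX were also under the 3 libraries of the iETV2 line with DOX. Slc2a1 was also lower in the H188A line without DOX, with a difference of -0.93 ± 0.07 (SE, adjusted p = 2.21e-08). The 5 higher genes were Hk1 at 0.36, Pfkm at 0.66, Pdk1 at 0.28, P4ha2 at 0.68 and Hif1a at 0.37. Epas1 was far higher in the H188A line, with 149, 157 and 157 CPM, against 5.94, 5.37 and 5.68 CPM in the iETV2 line, a log2 difference of 4.82 ± 0.22 (SE, adjusted p = 6.38e-11).

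Pluripotency markers differed in the same comparison, with 10 of 12 higher in the H188A line without DOX and 0 lower. Neural markers summed to 112 to 118 CPM, against 24.2 to 28.7 CPM in the iETV2 line without DOX, with 7 of 10 higher and 1 lower. Endoderm markers summed to 548 to 567 CPM, against 222 to 239 CPM, with 5 of 10 higher and 2 lower. Endothelial markers summed to 97.9 to 107 CPM, against 24.1 to 29.8 CPM, with 4 of 10 higher and 3 lower. Over all genes 19.7% were higher and 18.6% lower. The part of these cell states in the difference was not tested.

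With DOX in both lines the picture was mixed. Of the 34 genes 16 were higher in the H188A line and 5 lower, while 19.9% of all genes were higher and 17.6% lower, 37.6% in all. The median was 0.22, against -0.08 over all genes. Among the higher genes, Pgam1 and Pkm had overlapping libraries, at edgeR's adjusted p = 0.0319 and 0.0425. Both calls were lost with DESeq2 size factors and without any of several single libraries. Leaving out 1 library gave 13 to 16 higher genes of the 34 and 5 lower. In the same comparison 11 of 12 pluripotency markers were higher in the H188A line, and 9 of 10 blood and 6 of 10 endothelial markers were lower. Blood markers summed to 40.1 to 42.0 CPM in the H188A line with DOX, against 313 to 337 CPM in the iETV2 line with DOX, and endothelial markers to 225 to 228 CPM, against 471 to 480 CPM. Their part in the differences of the 34 genes was not tested. Genes of uptake and export were higher in the H188A line, with Slc2a1 at 446, 491 and 482 CPM in the H188A line, against 307, 275 and 303 CPM in the iETV2 line, a difference of 0.77 ± 0.07 (SE, adjusted p = 2.07e-07). Slc16a3 had 88.3, 115 and 110.0 CPM in the H188A line, against 61.6, 56.3 and 59.7 CPM in the iETV2 line, a difference of 0.91 ± 0.09 (SE, adjusted p = 5.72e-07). Ldha went the other way, at 325, 378 and 379.6 CPM in the H188A line, against 591, 548 and 615 CPM in the iETV2 line, a difference of -0.60 ± 0.08 (SE, adjusted p = 2.22e-05). Transport genes of glucose and lactate were thus higher while the lactate-forming enzyme was lower. Pfkfb4 had 3.48, 4.51 and 3.20 CPM in the H188A line, against 12.5, 12.1 and 15.1 CPM in the iETV2 line, a difference of -1.74 ± 0.13 (SE, adjusted p = 3.51e-08). Pfkm, the muscle-type phosphofructokinase subunit, had 80.3, 89.4 and 87.9 CPM in the H188A line, against 50.4, 45.0 and 50.2 CPM in the iETV2 line. It was higher by 0.92, and Pfkfb3 by 0.42. The Pfkfb3 call was lost without replicate 1 of the H188A line with DOX, at 0.27 with adjusted p = 0.107.

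Hypoxia-induced genes divided with DOX, 5 higher and 3 lower in the H188A line. P4ha2 had 34.6, 18.6 and 18.1 CPM in the H188A line, against 10.1, 9.32 and 11.8 CPM in the iETV2 line, a difference of 1.29 ± 0.19 (SE, adjusted p = 4.03e-05). Ak4 had 49.1, 45.8 and 44.4 CPM in the H188A line, against 24.8, 27.5 and 27.5 CPM in the iETV2 line, a difference of 0.90 ± 0.07 (SE, adjusted p = 7.97e-08). Ddit4 had 30.1, 31.3 and 32.6 CPM in the H188A line, against 71.6, 67.1 and 63.6 CPM in the iETV2 line, a difference of -1.01 ± 0.08 (SE, adjusted p = 4.26e-08). Without replicate 1 of the H188A line with DOX, P4ha2 stayed called at 0.91 and P4ha1 at 0.32, against 0.75 with it. Ndrg1 and Egln3 were lower in the H188A line by 0.45 and 0.41. Hif1a had 329, 324 and 325 CPM in the H188A line, against 325, 332 and 310.1 CPM in the iETV2 line, and its difference of 0.11 ± 0.08 (SE, adjusted p = 0.294) did not pass the test.

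**Figure D3:**
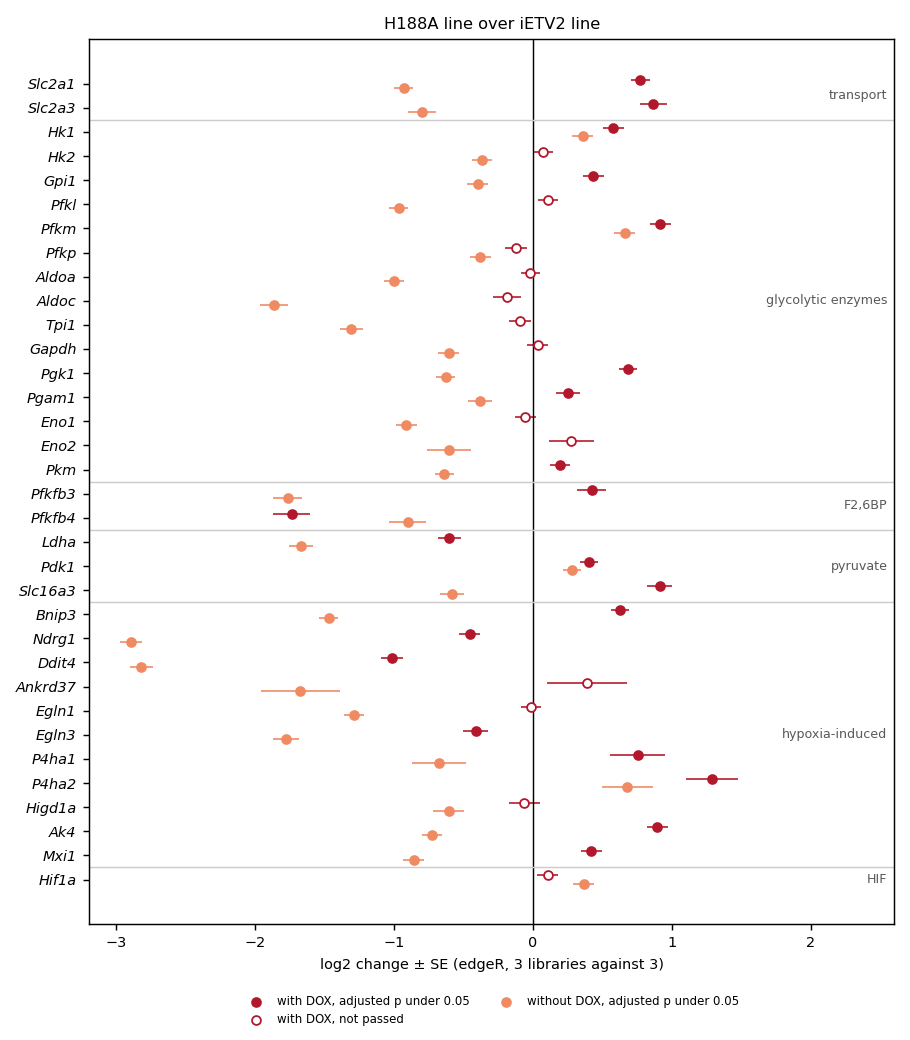
Log2 difference of the H188A line over the iETV2 line, with SE, for the 34 genes, with DOX (dark red) and without DOX (orange). Filled points passed edgeR's test at an adjusted p under 0.05. Without DOX 29 points lie left of 0, and with DOX 16 filled points lie right of it.

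Summed levels show how large a share of the RNA these genes make up. The 22 glycolysis genes held 1.24 ± 0.00570% of all counts in the H188A line with DOX and 1.14 ± 0.0405% without (mean ± SD, n = 3). In the iETV2 line they held 1.21 ± 0.0937% with DOX and 1.98 ± 0.106% without. The 11 hypoxia-induced genes held 0.0350 ± 0.00311% in the H188A line with DOX and 0.0319 ± 0.000154% without, and 0.0325 ± 0.000425% in the iETV2 line with DOX and 0.0951 ± 0.00140% without. The iETV2 line without DOX thus stood above the other 3 groups on both sums, with no overlap between libraries.

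**Figure D4:**
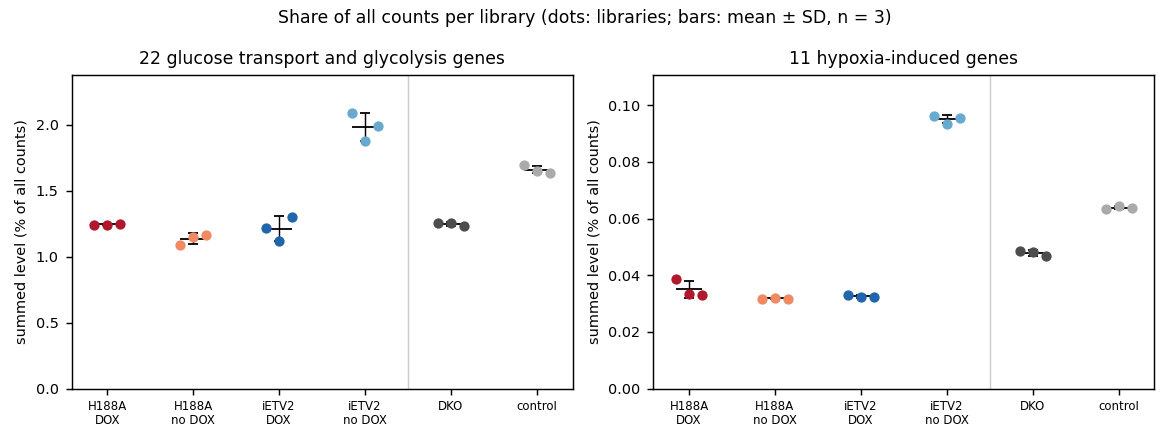
Summed level of the 22 glucose transport and glycolysis genes and of the 11 hypoxia-induced genes as a percent of all counts, per library, on axes that start at 0. Dots are libraries and bars are mean ± SD of 3 libraries. The iETV2 line without DOX is highest in both panels, and cells labelled DKO lie under their control in both.

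In cells labelled KDM4A/4C DKO most of these genes were again lower than in control cells. Of the 34 genes 29 were lower and 3 higher, but 33.7% of the 20426 genes tested were lower and 35.6% higher, so 69.3% of all genes differed. Libraries did not overlap for 27 of the 34 on the lower side and 4 on the higher, as for 29.7% and 43.5% of all genes. The median log2 change was -0.60 over the 34 genes and 0.04 over all genes. Of the glycolysis genes 20 of 22 were lower, with a median of -0.53, and of the hypoxia-induced genes 8 of 11, with a median of -0.72. Cell types differed at the same time. Blood markers summed to 36.7 to 39.6 CPM in cells labelled DKO, against 1367 to 1426 CPM in control, with 9 of 9 tested lower. Endothelial markers summed to 135 to 140 CPM in cells labelled DKO, against 719 to 727 CPM in control, with 9 of 9 tested lower. Fibroblast markers summed to 68.0 to 71.5 CPM in cells labelled DKO, against 559 to 569 CPM in control, with 8 of 10 lower and 2 higher. None of these blood, endothelial and fibroblast markers was at 0 in all libraries of a group. Neural markers summed to 40.7 to 43.1 CPM in cells labelled DKO, against 11.8 to 14.2 CPM in control. Of 7 neural markers tested 5 were higher and 0 lower, and 1 of the 10 was at 0 in all control libraries. Pluripotency markers were higher for 11 of 12 genes in cells labelled DKO, and control cells had the lowest pluripotency sum of the 6 groups beside their blood and endothelial RNA. The part of cell makeup in the changes below was not tested.

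Uptake and lactate genes were lower in cells labelled DKO. Slc2a1 had 376, 373 and 354 CPM in cells labelled DKO, against 932, 881 and 869 CPM in control, a log2 change of -1.41 ± 0.04 (SE, adjusted p = 6.62e-18). Ldha had 411, 420.1 and 398 CPM in cells labelled DKO, against 759, 786 and 761 CPM in control, a change of -1.03 ± 0.04 (SE, adjusted p = 2.08e-16). The groups were well apart for both genes, and Slc16a3 was lower by 1.15. Slc2a3 was lower by 0.56 and Pdk1 by 0.23.

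Of the 34 genes Pfkfb4 differed most. It had 5.11, 4.25 and 4.44 CPM in cells labelled DKO, against 29.0, 27.1 and 26.9 CPM in control, a change of -2.72 ± 0.08 (SE, adjusted p = 2.84e-17). Pfkfb3, the other regulator of phosphofructokinase, was lower by 0.57. Aldoc had 11.3, 13.0 and 11.7 CPM in cells labelled DKO, against 31.8, 32.7 and 31.6 CPM in control, a change of -1.53 ± 0.07 (SE, adjusted p = 1.66e-14). Tpi1 was lower by 1.46 and Hk1 by 0.88. Eno2 was the clearest exception, with 20.2, 21.0 and 20.0 CPM in cells labelled DKO, against 6.88, 6.43 and 6.01 CPM in control, a change of 1.54 ± 0.08 (SE, adjusted p = 3.94e-13). Gpi1 was higher by 0.11. Hk2 had 210.1, 199.8 and 201 CPM in cells labelled DKO, against 201, 197 and 198 CPM in control, and although the fit called it lower at -0.08 ± 0.04 (SE, adjusted p = 0.0485), its sign turned to 0.04 when libraries were scaled by their totals. Eno1b, the copy of Eno1, held 2.02 CPM in cells labelled DKO and 4.30 CPM in control, far under its levels in the other experiments, and Eno1 was lower by 0.67.

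Among hypoxia-induced genes P4ha2 had 25.7, 25.0 and 24.9 CPM in cells labelled DKO, against 57.8, 56.1 and 55.6 CPM in control, a change of -1.29 ± 0.05 (SE, adjusted p = 1.73e-15). Higd1a had 9.20, 8.84 and 8.15 CPM in cells labelled DKO, against 14.8, 17.3 and 17.3 CPM in control, a change of -1.04 ± 0.08 (SE, adjusted p = 3.63e-10). Ankrd37 had 1.16, 1.31 and 1.58 CPM in cells labelled DKO, against 1.80, 2.49 and 2.97 CPM in control, a change of -0.96 ± 0.22 (SE, adjusted p = 0.000686). Ankrd37 libraries came close to each other, while those of P4ha2 were well apart. Ddit4 was higher, at 101, 103 and 89.3 CPM in cells labelled DKO, against 72.5, 77.3 and 75.2 CPM in control, a change of 0.26 ± 0.05 (SE, adjusted p = 7.07e-05). Ndrg1 had 45.2, 45.8 and 45.9 CPM in cells labelled DKO, against 40.6, 37.5 and 38.9 CPM in control. Its libraries did not overlap, but its change of 0.10 ± 0.05 (SE, adjusted p = 0.0733) did not pass the test, and it was called higher at 0.23 with adjusted p = 0.000233 when libraries were scaled by their totals. Mxi1, at -0.09 ± 0.07 (SE, adjusted p = 0.263), did not pass either. Hif1a had 294, 281 and 294 CPM in cells labelled DKO, against 334, 328 and 325 CPM in control, a change of -0.31 ± 0.04 (SE, adjusted p = 1.99e-07).

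**Figure D5:**
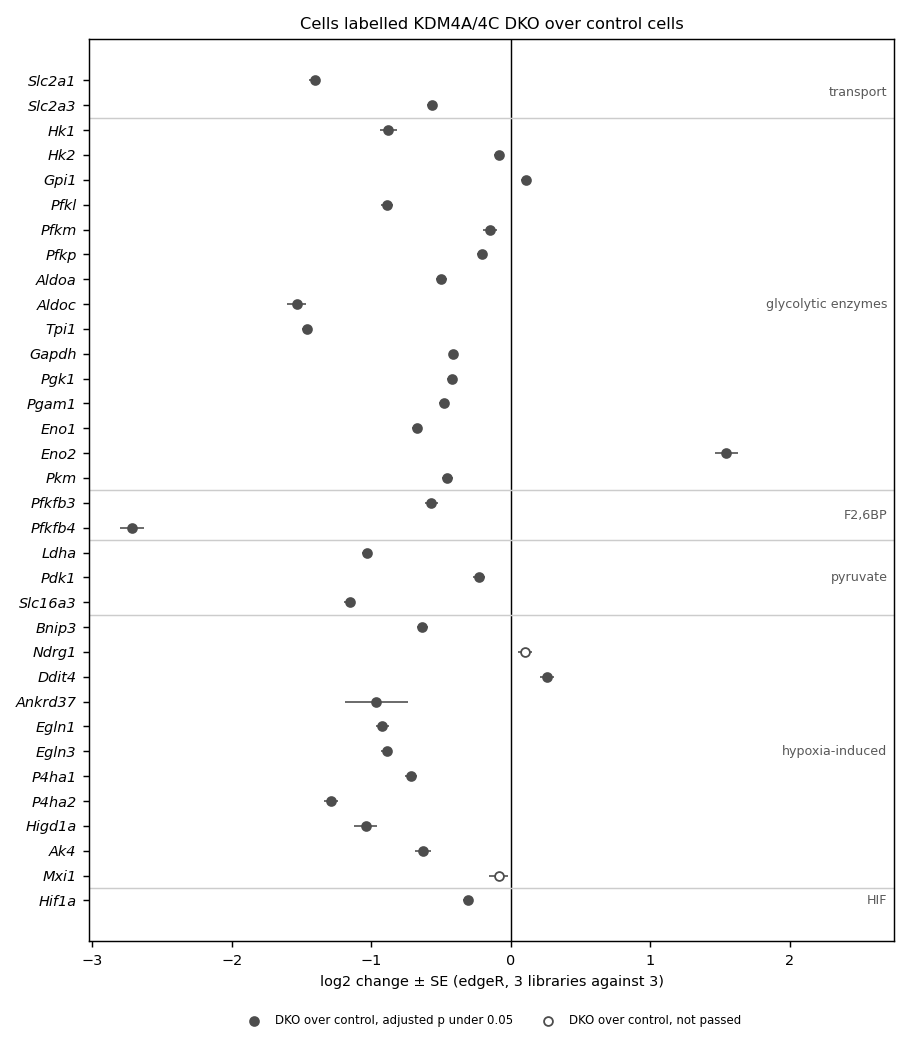
Log2 change of cells labelled KDM4A/4C DKO over control cells, with SE, for the 34 genes. Filled points passed edgeR's test at an adjusted p under 0.05. Pfkfb4 lies furthest left at -2.72 and Eno2 furthest right at 1.54, and 29 filled points lie left of 0.

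The lists around the pathway were read beside all genes tested, of which 35.6% were higher and 33.7% lower in cells labelled DKO. Of 31 other hypoxia-induced genes tested 21 were lower and 8 higher, with a median of -0.57. Loxl2, a lysyl oxidase of the matrix, was lower by 2.07, and Anxa2, an annexin, by 1.74, while Car12 was higher by 2.74. Of 25 genes of pyruvate entry and the citric acid cycle 19 were lower and 3 higher, among them Sdhb, a succinate dehydrogenase subunit, lower by 0.87 and Pdha1, a pyruvate dehydrogenase subunit, higher by 0.74. Of 7 pentose phosphate genes 4 were lower and 1 higher, with Rpia lower by 1.45 and Tkt, transketolase, by 0.96. Of 18 other glycolysis genes 7 were lower and 5 higher, near the shares over all genes. Pdk4, a pyruvate dehydrogenase kinase, had 23.9, 22.3 and 24.9 CPM in cells labelled DKO, against 4.37, 3.74 and 3.81 CPM in control, and was higher by 2.45. Ldhb, the lactate dehydrogenase subunit that favours pyruvate, had 127, 132 and 126 CPM in cells labelled DKO, against 22.5, 22.5 and 26.2 CPM in control, and was higher by 2.31. The A and B subunits of lactate dehydrogenase thus moved in opposite directions. Of 12 genes of the HIF machinery 4 were higher and 4 lower, again near those shares, with Cited2, a competitor of HIF for its coactivator, lower by 1.83.

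H3K9me3, the repressive mark that KDM4A removes, was mapped by ChIP-seq in 3 libraries with DOX and 3 without, whose titles name embryoid bodies. The titles of the DOX libraries differ, as EB-DOX-D2, EB-DOX-D3 and EB-Er71-Flag-DOX-D2 for replicates 1, 2 and 3, so they are replicates by the DOX label only. The line is otherwise not given in the labels, and the lists hold regions called in each library by the authors. A region within 5 kb of the gene was listed for 5, 5 and 2 of the 34 genes with DOX, against 4, 3 and 4 without. As a share this was 14.7, 14.7 and 5.88% with DOX, against 11.8, 8.82 and 11.8% without, while 23.3 to 26.6% of 18705 tested genes with a position had one. Over all 6 libraries 7 of 34 genes had a region at least once, against 33.8% of all these genes. Neither difference was tested. Hk1 and Ak4 had a region in all 6 libraries. Those of Hk1 lie between bases 62362601 and 62373400 of chromosome 10 (GRCm38), inside the gene. The authors' log2 enrichment there was 1.40 with DOX in replicate 1, 1.20 and 0.82 in replicate 2 and 1.03 in replicate 3, against 1.18, 1.30 and 1.31 without. The enrichment thus overlapped between the groups. Regions inside or within 5 kb of Ak4 had a log2 enrichment of 0.19 to 0.70 with DOX, against 0.32 to 0.71 without. Pfkfb4 had a region inside the gene in 1 library with DOX and 2 without, and P4ha2 and Pdk1 had one within 5 kb in some libraries of both groups. Egln1 had one in 1 DOX library only and Pfkp in 1 library without DOX only. Slc2a1, Slc2a3, Ldha, Ndrg1, Bnip3, Ddit4, Pfkfb3 and Hif1a had none.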

How the data were processed

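RNA-seq libraries were prepared from total RNA extracted with a Direct-zol kit, per the labels. For each RNA library the authors deposited a table of unnormalised counts by Ensembl identifier. The submitters' processing notes name HTSeq 2.0.3, featureCounts 2.0.6, StringTie 2.2.1, STAR 2.7.10b, Picard 3.0.0 and DESeq2 1.18.1, besides ChIPseeker, DiffBind and Bowtie, and the builds GRCm38 and mm10. Which of these made the counts or the ChIP regions, and the strand setting, are not given in the sources used here, so overlapping and antisense genes and near-identical copies are uncertain. Symbols were found for 55141 of 55487 identifiers, and 1 member symbol matched 2 identifiers, of which the one with more counts was kept. For H3K9me3 the authors deposited regions per library with a log2 enrichment, a p-value and its FDR, per the file headers. The input libraries were not used. Positions are 1-based, and a region counted for a gene when at least 1 base lay within 5 kb of it.

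Counts were analysed in R 4.3.3 with edgeR 4.0.16. Genes were kept with filterByExpr, scaled by TMM and tested by the quasi-likelihood F test with Benjamini-Hochberg adjustment over all genes tested and a threshold of 0.05. DOX in each line and cells labelled DKO were fitted on 6 libraries each, and the interaction and the line comparisons on 12. Standard errors were obtained from the log2 change and the square root of its F statistic, and 95% intervals from a t quantile at the test's degrees of freedom. CPM are scaled by library totals alone, and ratios of CPM can therefore depart from the fitted log2 changes. The edgeR fit was tested on simulated counts with known changes, while the handling of regions and promoters was not. Alternatives were DESeq2 size factors, no filter, a stricter filter of at least 1 CPM in 3 libraries, DESeq2 1.42.0, the replicate number as a block, leaving out each library, the receptor sum as a covariate, a 12-library fit and, added after seeing the data, library totals without TMM.

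In the iETV2 line, libraries with the same number correlated in their deviations at r = 0.13, 0.43 and 0.51 over genes. Replicate 1 with DOX correlated more with a library of another number (r = 0.33), so a pairing by number is uncertain. The reported results come from a fit by group only, without pairing, and the replicate block was an alternative. With the replicate block the 30 lower and 2 higher calls stayed in number, while 18.3% of all genes were called lower and 19.8% higher. In the other experiments the correlations of same-numbered libraries did not all pass 0.1.

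The 34 genes and all lists were chosen with earlier results of these data known. Library values of Slc2a1, Ldha, Ndrg1 and Hif1a are given for every group, in some cases only under another comparison. They are also given in each comparison of 2 groups for up to 3 glycolysis and 3 hypoxia-induced genes with the largest called changes. From other lists up to 3 called genes by size of change are named, not all with library values. Library values of further members, such as Pgk1, Gapdh and P4ha1, were chosen after they were seen. Promoter windows came from RefSeq, and regions, promoters and figures were handled in Python 3.11.15 (matplotlib 3.10.9, pandas 2.3.3).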

Additional observations from a re-analysis of the deposited data

Results flagged for a closer look

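The DOX change differed between the lines by the interaction test of edgeR (adjusted p under 0.05) for 28 of the 34 genes, and each value here is the log2 change with DOX in the H188A line minus that in the iETV2 line. Among transporters the difference was 1.70 for Slc2a1, 1.66 for Slc2a3 and 1.49 for the lactate exporter Slc16a3. Early enzymes of the chain differed by 0.44 (Hk2), 0.83 (Gpi1), 1.07 (Pfkl), 0.98 (Aldoa), 1.67 (Aldoc) and 1.21 (Tpi1). Later enzymes differed by 0.64 (Gapdh), 1.31 (Pgk1), 0.63 (Pgam1), 0.85 (Eno1), 0.88 (Eno2), 0.83 (Pkm) and 1.07 (Ldha). The regulators of fructose 2,6-bisphosphate differed in opposite directions, by 2.19 for Pfkfb3 and -0.83 for Pfkfb4. Hypoxia-induced genes differed by 2.44 (Ndrg1), 2.10 (Bnip3), 2.06 (Ankrd37), 1.80 (Ddit4), 1.62 (Ak4), 1.43 (P4ha1), 1.36 (Egln3), 1.28 (Egln1), 1.28 (Mxi1) and 0.54 (Higd1a). The Higd1a call was lost without any of 8 of the 12 libraries, at 0.44 to 0.57 with edgeR's adjusted p between 0.0513 and 0.162, and with the receptor covariate, at 0.47 with adjusted p = 0.094. The Hk2 call was lost without replicate 1 of the H188A line with DOX, at 0.46 with adjusted p = 0.0727, and the Eno2 call without replicate 1 of the iETV2 line without DOX, at 0.79 with adjusted p = 0.0552. The lines belong to separate experiments, so line and experiment cannot be told apart.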

How the results depend on the processing

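The counts of genes lower with DOX in the iETV2 line (28 to 30), lower in cells labelled DKO (27 to 29), with a difference above 0 (25 to 28) and lower in the H188A line without DOX (29) stayed within 1.5 times of the reported count under every alternative run. In the same order, the shares of all genes called in these directions ran between 4.56% and 21.2%, 14.3% and 39.6%, 3.72% and 14.7%, and 9.31% and 30.8%. Counts in the H188A line moved. Genes higher with DOX there were reported as 2, beside 2.22% of all genes. They numbered 0 with DESeq2 size factors (1.37% of all genes), 4 without the filter (2.32%) and 4 with the stricter filter (3.01%). DESeq2 gave 5 (4.51%), the replicate block 0 (0.953%), library totals 1 (1.35%), the receptor covariate 0 (0.479%) and the 12-library fit 1 (1.98%). Without 1 library they numbered 0 to 5, beside 0.289% to 3.24% of all genes. Genes lower there, reported as 0 beside 0.801% of all genes, numbered 2 with the stricter filter (2.45%) and 1 by DESeq2 (2.42%). Genes with a difference below 0, reported as 1 beside 6.20% of all genes, numbered 0 without the filter (2.35%). They numbered 2 with the stricter filter (13.4%), library totals (8.42%) or the receptor covariate (7.61%). Genes higher in the H188A line without DOX, reported as 5 beside 19.7% of all genes, numbered 2 without the filter (5.98%). Hk2 in cells labelled DKO turned to 0.00711 without the filter and 0.0385 with library totals. The cause was not tested. Library totals moved the median of all genes in cells labelled DKO to 0.16, against 0.04 with TMM, and the split of all genes called with DOX in the H188A line to 1.35% higher and 1.01% lower. The replicate block gave 3 higher and 29 lower genes in cells labelled DKO, 27 above 0 and 1 below for the difference, 5 and 29 for the lines without DOX and 15 and 5 with DOX. Over all genes it gave 34.9% and 33.3% in cells labelled DKO and 7.39% and 5.4% for the difference. For the lines it gave 18.6% and 17.9% without DOX and 18.9% and 16.2% with DOX. Same-numbered libraries correlated at -0.08, 0.03 and 0.27 in the H188A line and at 0.02, 0.01 and 0.03 in the DKO experiment, so a block there marks a number only. H3K9me3 regions touched 7 of the 34 genes, 7 at an FDR under 0.001 and 5 inside the gene body. The shares over 18705 tested genes with a position were 33.8%, 32.9% and 25.4%. With 3 libraries a group, changes of Ankrd37 and other low genes are the least precise.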
